A study of Homo sapiens with 31 samples.

Results

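The genes described here encode the proteins of the cytosolic ribosome, read in TMD8 lymphoma cells with wild-type RHOA or with RHOA p.R5W. They were chosen by symbol alone: RPL or RPS followed by a number, with an optional A, X or L-number suffix, together with RPSA, RPLP0, RPLP1 and RPLP2. Ribosomal protein S6 kinases, RPS4Y genes, pseudogenes and antisense names were left out. The rule took 80 of the 25073 gene rows of the table, 49 of the large subunit and 31 of the small subunit. The large subunit set included 3 paralogs, RPL22L1, RPL26L1 and RPL7L1. A few ribosomal protein genes lay outside the rule, among them FAU, RPL36AL, RPL39L, RPS27L, RPL3L and RPL10L.

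TMD8 is an established human cell line from a diffuse large B-cell lymphoma of the activated B-cell type. RHOA is a small GTPase that controls the actin cytoskeleton, and p.R5W is a single amino acid change in it. The WT group held 2 libraries of TMD8 cells with wild-type RHOA, and the R5W group held 2 libraries of TMD8 cells with the p.R5W change, which the labels describe as knocked in. Both groups had been kept overnight in 50 nM copanlisib, an inhibitor of phosphoinositide 3-kinase, so every value below was measured under this drug and its own effect was not measured. Whether the R5W cells were 1 clone, and whether the replicates were separate cultures, is not given in the sources used here, so p-values measure only the spread between these libraries, which may be technical. The series' other 27 libraries, of cells treated with DMSO, ibrutinib or Rhosin, were not used. In their tables, 49 of the 80 rows named as these genes had a mean below 10 counts in DMSO-treated TMD8 cells, against the very high levels found here. The match of symbols to rows in those tables is therefore in doubt, and no level of these genes was read from them.

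Each ribosome contains a single copy of most of these proteins, and cells make them in matched amounts, since unpaired ribosomal proteins are degraded. Their mRNAs are among the most abundant in dividing cells. They start with a C followed by a run of pyrimidines, the terminal oligopyrimidine (TOP) motif, through which the kinase complex mTORC1, which acts downstream of phosphoinositide 3-kinase, controls their translation more than their amount. The protein LARP1 binds this motif when mTORC1 is inactive. The values below are mRNA levels, and translation was not measured.

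The start sites of the genes that the results turn on are shown, so that the run of pyrimidines can be seen. The 4 genes that passed the test come first, followed by 2 paralogs beside their parent genes and by 3 genes described for their spread or role. Each window runs from 20 bases before the annotated start to 20 bases after it, 5′ to 3′ on the strand of the gene, from RefSeq on GRCh38.p14, and the capitals mark the longest run of C and T where it has 5 or more bases. Where a gene had several starts (RPL13, RPL26L1 and RPS19), the start with the longest run is shown.
RPL13, chr16:89560662-89560701, plus strand: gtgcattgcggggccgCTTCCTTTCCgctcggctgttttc
RPS16, chr19:39435930-39435969, minus strand: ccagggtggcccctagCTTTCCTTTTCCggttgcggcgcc
RPL9, chr4:39458903-39458942, minus strand: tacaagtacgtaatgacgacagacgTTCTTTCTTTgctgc
RPL17, chr18:49492446-49492485, minus strand: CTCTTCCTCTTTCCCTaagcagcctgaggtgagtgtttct
RPL22, chr1:6199576-6199615, minus strand: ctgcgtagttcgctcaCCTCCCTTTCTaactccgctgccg
RPL22L1, chr3:170870176-170870215, minus strand: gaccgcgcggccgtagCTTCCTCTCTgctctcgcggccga
RPL26, chr17:8383174-8383213, minus strand: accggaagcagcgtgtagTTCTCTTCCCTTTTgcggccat
RPL26L1, chr5:172958709-172958748, plus strand: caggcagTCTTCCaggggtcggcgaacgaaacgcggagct
RPLP1, chr15:69452798-69452837, plus strand: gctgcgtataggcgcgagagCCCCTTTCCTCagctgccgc
RPS6, chr9:19380217-19380256, minus strand: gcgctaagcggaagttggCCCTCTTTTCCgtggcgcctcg
RPS19, chr19:41860235-41860274, plus strand: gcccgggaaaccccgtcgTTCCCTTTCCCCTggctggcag

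A run of pyrimidines at the start was common to the ribosomal protein genes and was not used to choose them. A promoter was found for 65 of the 80 genes, matched by symbol. A run of at least 8 letters of C or T in any order, read on the strand of the gene and starting or ending within these windows, was present for 57 of the 65 genes (87.7%), taking the longest run where a gene had several starts. Over all genes of the promoter set, which is separate from the gene rows of the expression values, it was present for 7033 of 27305 (25.8%). The longest run had a median of 12 letters over the 65 genes and of 5 over all genes. On the opposite strand, as a run of A or G, it was present at 11.1% of the ribosomal protein starts and at 21.6% of all starts. RPL26L1 had no run longer than 6 letters and RPL7L1 none longer than 2, while RPL26, the parent of the former, had a run of 14. The annotated starts of RPL9 and RPL17 lay some bases away from the run. A run of letters is a description of the sequence and does not show that the mRNA is regulated.

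The level of ribosomal protein mRNA differed little between R5W and WT cells under copanlisib. The values are log2 of a read count multiplied by a factor per library, and differences are R5W minus WT on the log2(value + 1) scale. The median difference over the 80 genes was 0.07, beside 0.01 over all 13698 genes tested. Of the 80 genes, all of which passed the filter on low values, 4 rose, namely RPL13, RPS16, RPL9 and RPL17 (5% of them), while 1794 of all genes tested rose (13.1%), by limma with Benjamini-Hochberg adjusted p under 0.05. None fell, while 1634 of all genes tested fell (11.9%). At an unadjusted p under 0.05 by limma, 2606 of all 13698 genes tested were higher in R5W cells and 2396 were lower. Of the 80 genes, 13 were higher and 0 lower at that threshold by limma, 11 and 0 by edgeR, and 9 and 0 by DESeq2. The differences ran from -0.18 to 0.58, with 66 genes above 0 and 14 below. Over all genes tested, 7048 were above 0 and 6650 below. The standard deviation over genes was 0.12 for the 80, beside 0.50 over all genes tested. Both R5W values lay above both WT values for 35 of the 80 genes (43.8%), and below them for 3, RPL18 and RPL39 among them (3.75%). Over all genes tested the shares were 32.4% above and 30.6% below.

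The size of the differences between these libraries was bounded closely, though the spread behind the intervals may be technical. The 95% confidence interval lay within 0.5 log2 units of 0 for 76 of the 80 genes, and its half-width had a median of 0.16. The difference lay between -0.1 and 0.1 for 40 genes, above 0.2 for 7 and below -0.2 for 0. All 4 called genes were called in 11 of the 15 alternatives that kept all 4 libraries, edgeR and DESeq2 among them. The exceptions were an adjusted p under 0.01, quantile normalization, removal of a trend on gene length (each with 3 of the 4 called), and limma's trend and robust settings both off. With those settings off, 0 of the 80 genes were called by limma. Leaving out a WT library gave a median difference over the 80 genes of 0.12 (without WT replicate 1) or 0.04 (without WT replicate 2). Leaving out an R5W library gave 0.06 (without R5W replicate 1) or 0.10 (without R5W replicate 2). Tests with 1 library left in a group assume that it varied as the libraries of the other group did.

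**Figure D1:**
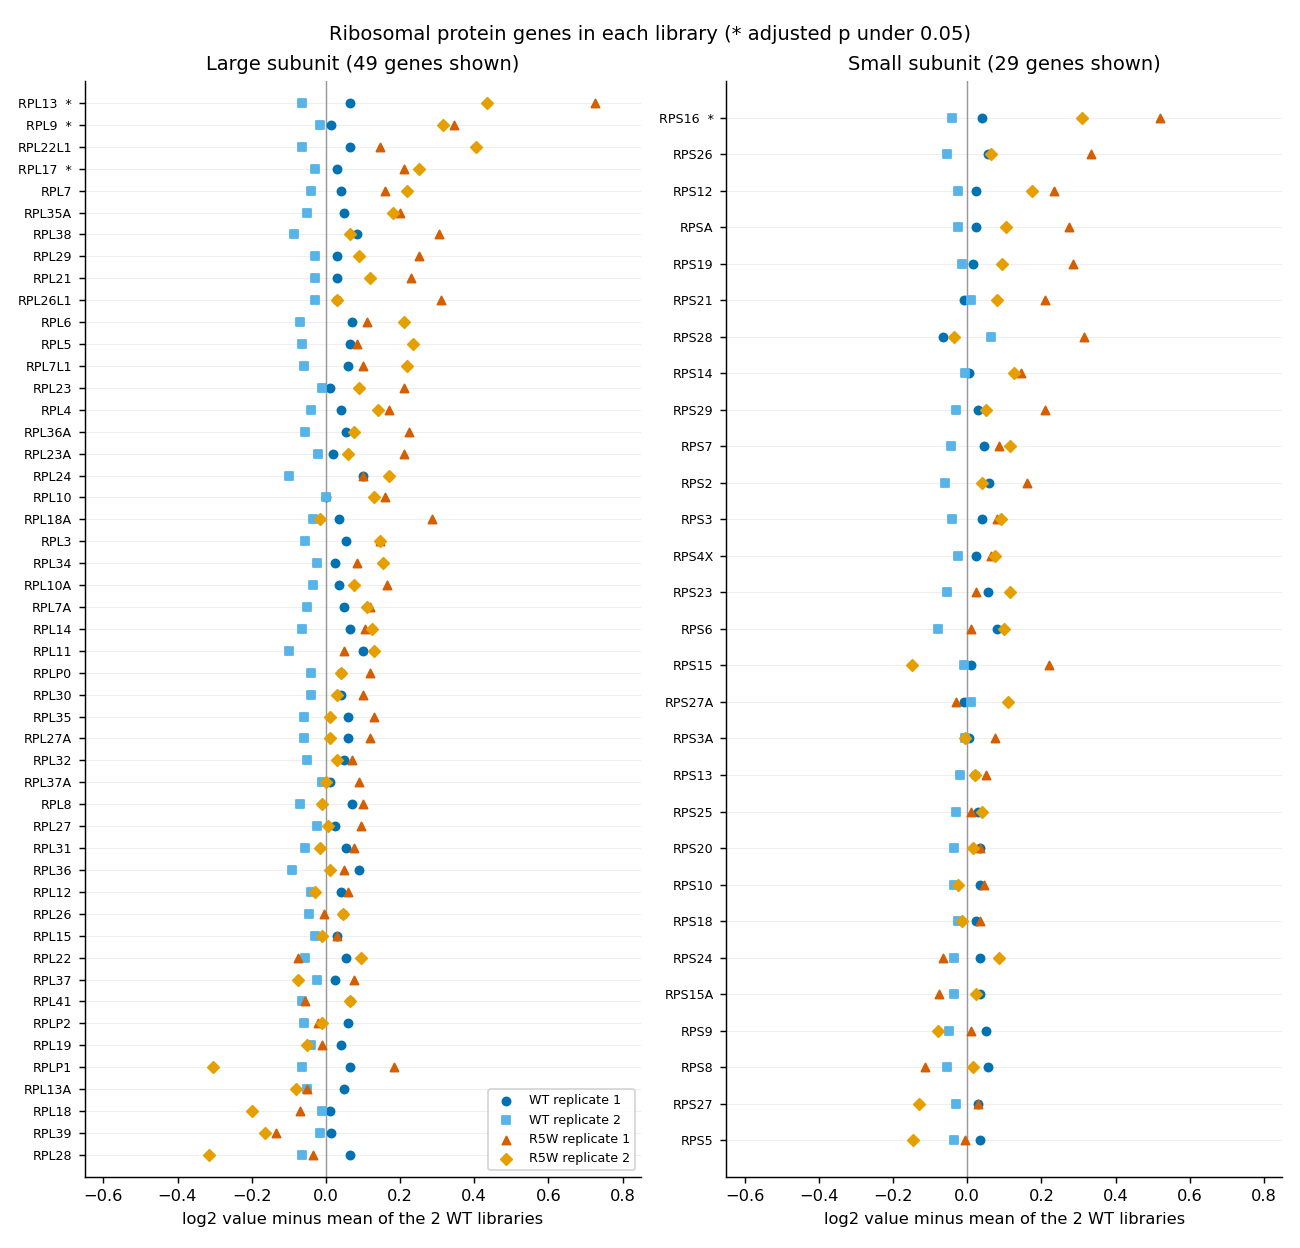
Each row is 1 ribosomal protein gene, for 78 of the 80, with large subunit genes on the left and small subunit genes on the right, ordered by the difference between R5W and WT. The x axis is the log2 value minus the mean of the 2 WT libraries, blue marks are the WT libraries, orange marks are the R5W libraries, and an asterisk marks an adjusted p under 0.05. Most marks lie within 0.2 of the line at 0, RPL13 and RPS16 reach farthest to the right, and the R5W libraries of RPLP1 and RPS15 lie on both sides of the WT libraries.

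RPL13, a large subunit protein whose variants cause a skeletal dysplasia, read 15.51 and 15.38 on the log2 scale in the WT libraries and 16.17 and 15.88 in the R5W libraries. Both R5W values lay above both WT values, and the gap between the groups was wider than the gap within either. It rose by 0.58 (SE 0.0926, 95% CI 0.38 to 0.78, limma adjusted p = 0.000771), a fold of 1.5. The call held with each library left out in turn. It was lost, at the same difference, with limma's trend and robust settings off (adjusted p = 0.0862).

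RPS16, a small subunit protein whose tail reaches the transfer RNA in the peptidyl site, read 15.62 and 15.54 in WT and 16.10 and 15.89 in R5W. The groups did not overlap, and R5W replicate 1 was the highest library. The rise was 0.41 (SE 0.0804, limma adjusted p = 0.00238), a fold of 1.33. Without WT replicate 2 it was 0.37 and no longer passed (adjusted p = 0.0748). With trend and robust off, its adjusted p was 0.106.

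RPL9, a large subunit protein near the site where translation factors bind, read 14.60 and 14.57 in WT and 14.93 and 14.90 in R5W. The replicates of each group lay within 0.03 of each other, and the groups were well apart. The rise was 0.33 (SE 0.0682, limma adjusted p = 0.0034). It was 0.34 without WT replicate 1 and 0.32 without WT replicate 2, and neither passed (adjusted p = 0.0899 and 0.105). With trend and robust off, its adjusted p was 0.0878.

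RPL17, which lines the tunnel through which the new protein leaves, read 14.82 and 14.76 in WT and 15.00 and 15.04 in R5W. The groups did not overlap. The rise was 0.23 (SE 0.0689, limma adjusted p = 0.0267). It was 0.18 with quantile normalization (adjusted p = 0.059) and 0.18 with a trend on gene length removed (adjusted p = 0.0627), and it did not pass without WT replicate 1 (0.26, adjusted p = 0.203), without WT replicate 2 (0.20, adjusted p = 0.333) or with trend and robust off (adjusted p = 0.158). Many ribosomal protein genes have near-identical copies elsewhere in the genome, and RPL17 also shares reads with a readthrough transcript, so the authors' counting could split or add reads, and single differences of this size are uncertain for that reason.

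**Figure D2:**
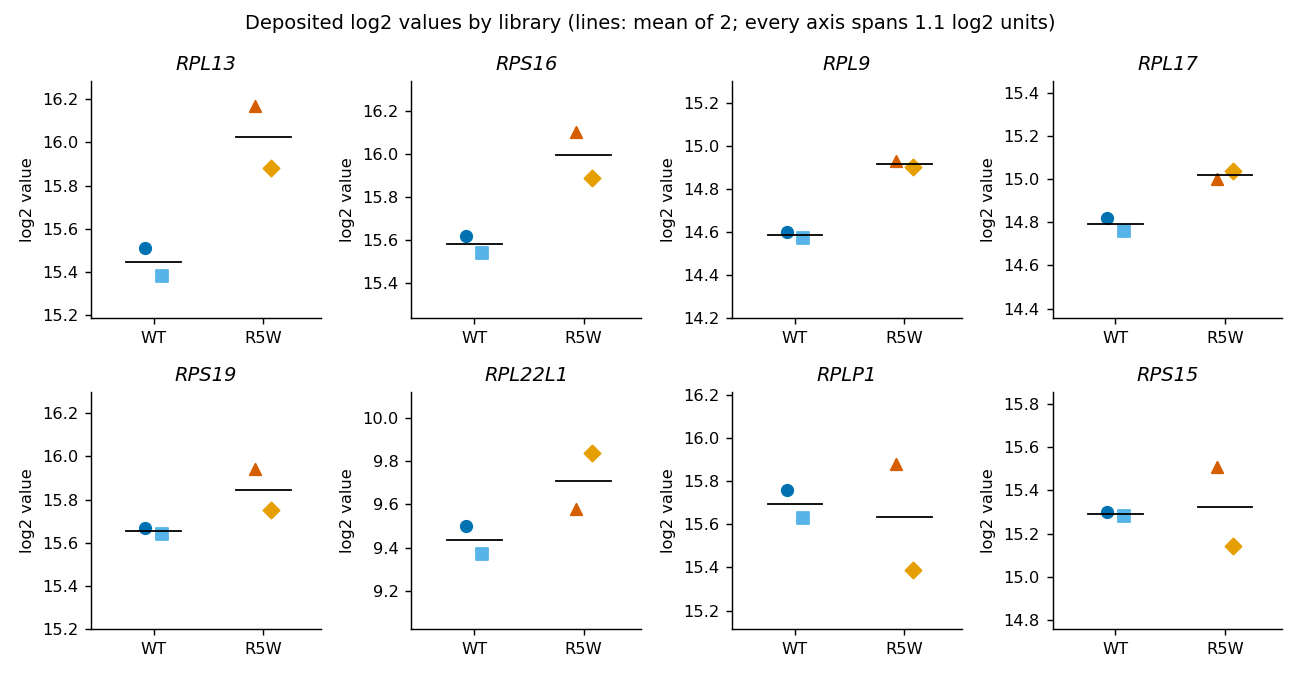
The log2 value in each library is shown for the 4 genes that rose (top row) and for RPS19, RPL22L1, RPLP1 and RPS15 (bottom row). Circles and squares are WT replicates 1 and 2, triangles and diamonds are R5W replicates 1 and 2, lines are group means, and each axis starts above 0 but spans the same number of log2 units. The groups are apart in the top row, while in RPLP1 and RPS15 the R5W replicates lie on both sides of the WT values.

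The 9 other genes with an unadjusted p under 0.05 were RPS12, RPL35A, RPL7, RPSA, RPL22L1, RPS19, RPL21, RPL29 and RPL4, of which RPS12, RPL21, RPL29 and RPL4 were named after their values were seen. All had positive differences, from 0.15 for RPL4 to 0.28 for RPL22L1, and their limma adjusted p ran from 0.0521 for RPS12 to 0.118 for RPL4. RPS12, which read 13.77 and 13.72 in WT and 13.98 and 13.92 in R5W, did not overlap between groups and differed by 0.20, and it was called with a minimum of 100 and without each R5W library in turn. RPSA, a small subunit protein also known as the laminin receptor, read 14.76 and 14.71 in WT and 15.01 and 14.84 in R5W, and differed by 0.19 (adjusted p = 0.0868). RPSA was called in only 1 of 19 alternatives, without R5W replicate 2 (0.28). Its difference ran from 0.10 to 0.28 over the 19. RPL18, whose R5W values lay below both WT values, read 15.51 and 15.49 in WT and 15.43 and 15.30 in R5W, a difference of -0.13 (adjusted p = 0.2). RPL39, which lines the exit tunnel, read 11.72 and 11.69 in WT and 11.57 and 11.54 in R5W, a difference of -0.15 (adjusted p = 0.183). Neither passed, although both were called lower with the trend on gene length removed and without R5W replicate 1. RPL18 was also called lower with quantile normalization.

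Of all genes tested 13.1% rose, against 3 of the 49 large subunit genes (6.12%) and 1 of the 31 small subunit genes (3.23%). The median difference was 0.11 for the large subunit and 0.04 for the small subunit. Both R5W values lay above both WT values for 24 large subunit genes (49%) and 11 small subunit genes (35.5%). Over all genes tested this share was 32.4%. The median log2 value of the small subunit genes exceeded that of the large subunit genes by 0.314 and 0.324 in the WT libraries and by 0.356 and 0.324 in the R5W libraries. The ranges of the groups met, and the 2-sided exact permutation p was 0.667, where 2 against 2 libraries cannot go below 0.333.

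The stalk of the large subunit, which recruits translation factors to the ribosome, is built from RPLP0, RPLP1 and RPLP2. None of the 3 genes passed the test, beside the 13.1% of all genes tested that rose and the 11.9% that fell. RPLP0, the base of the stalk, read 16.16 and 16.08 in WT and 16.24 and 16.16 in R5W, a difference of 0.08 (95% CI -0.07 to 0.23). RPLP1 read 15.76 and 15.63 in WT and 15.88 and 15.39 in R5W, so that the R5W replicates enclosed the WT values (difference -0.06, 95% CI -0.42 to 0.30). RPLP1 was called in only 1 of 19 alternatives, without R5W replicate 1 (-0.30). Its difference ran from -0.30 to 0.18 over the 19. RPLP2 read 14.59 and 14.47 in WT and 14.51 and 14.52 in R5W, inside the WT range, with a difference of -0.02.

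The L-number paralogs were the least abundant of the 80 genes. Their parents are RPL22, which is recurrently lost in T-cell leukaemia, RPL26, which binds p53 mRNA, and RPL7. RPL22L1 read 9.50 and 9.37 in WT and 9.58 and 9.84 in R5W, above both WT values, with a difference of 0.28 (95% CI 0.03 to 0.52, limma adjusted p = 0.0917). RPL22 read 13.41 and 13.30 in WT and 13.28 and 13.45 in R5W, and the groups overlapped (difference 0.01). The log2 ratio of RPL22L1 to RPL22 was -3.91 and -3.93 in WT and -3.70 and -3.61 in R5W. It was 0.27 higher in R5W cells with no overlap, and the 2-sided exact permutation p of 0.333 is the smallest that 2 against 2 libraries allow. The ratio is not per gene length. RPL22L1 was called in only 1 of 19 alternatives, without R5W replicate 1 (0.41). Its difference ran from 0.14 to 0.41 over the 19.

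In the other pairs the ratio of paralog to parent overlapped between the groups. RPL26L1 read 8.36 and 8.30 in WT and 8.64 and 8.36 in R5W (difference 0.17, adjusted p = 0.399), and RPL26 differed by 0.02. The log2 ratio of RPL26L1 to RPL26 was -5.88 and -5.85 in WT and -5.56 and -5.88 in R5W, (exact permutation p = 1). RPL7L1 read 10.93 and 10.81 in WT and 10.97 and 11.09 in R5W (difference 0.16, adjusted p = 0.193), and RPL7 read 14.31 and 14.23 in WT and 14.43 and 14.49 in R5W (difference 0.19, adjusted p = 0.0698). Paralog and parent had near equal differences, and their log2 ratio was -3.39 and -3.42 in WT and -3.46 and -3.40 in R5W (exact permutation p = 0.667). The R5W values of RPL7L1 and of RPL7 lay above their WT values. Each was called in only 1 of 19 alternatives, without R5W replicate 1 (0.22 each). Over the 19, RPL7L1 ran from 0.10 to 0.22 and RPL7 from 0.14 to 0.23.

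Diamond-Blackfan anaemia is an inherited failure of red cell production caused by loss of 1 copy of a ribosomal protein gene. Of 9 genes mutated in it, 0 passed the test (2 had an unadjusted p under 0.05 by limma). Of all genes tested, 13.1% rose and 11.9% fell. The median difference of the 9 genes was 0.10, with 8 of 9 above 0. This was so for 66 of the 80 genes and for 7048 of all 13698 genes tested. RPS19, the gene most often mutated in it, read 15.67 and 15.64 in WT and 15.94 and 15.75 in R5W. Its groups did not overlap and it differed by 0.18 (95% CI 0.02 to 0.35, limma adjusted p = 0.0949). RPS19 was called in 2 of 19 alternatives, without R5W replicate 2 (0.28) and with the replicate number as a block. Its difference ran from 0.06 to 0.28 over the 19. RPL35A read 13.56 and 13.46 in WT and 13.71 and 13.69 in R5W, a difference of 0.19 (adjusted p = 0.0654). RPL35A was called in 2 of 19 alternatives, without R5W replicate 1 (0.19) and without R5W replicate 2 (0.20). Its difference ran from 0.11 to 0.25 over the 19. RPL5 and RPL11, which join 5S RNA and bind the p53 regulator MDM2, differed by 0.16 and 0.09 (adjusted p = 0.155 and 0.473). RPL5 read 15.25 and 15.12 in WT and 15.27 and 15.42 in R5W. It was called in only 1 of 19 alternatives, without R5W replicate 1 (0.24), and ran from 0.09 to 0.24 over the 19. RPL11 overlapped, at 14.31 and 14.11 in WT and 14.26 and 14.34 in R5W.

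Among the other anaemia genes, RPS26 read 11.34 and 11.23 in WT and 11.62 and 11.35 in R5W, so that R5W replicate 2 lay at the level of WT replicate 1 (difference 0.20, adjusted p = 0.148). RPS26 was called in only 1 of 19 alternatives, without R5W replicate 2 (0.34). Its difference ran from 0.06 to 0.34 over the 19. RPS24, RPS10 and RPS7 differed by 0.00, 0.01 and 0.10.

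None of 5 genes of other known roles passed the test, beside the 13.1% of all genes tested that rose and the 11.9% that fell. RPS6, the substrate of the S6 kinases downstream of mTORC1, read 16.59 and 16.43 in WT and 16.52 and 16.61 in R5W, overlapping, with a difference of 0.05 (95% CI -0.11 to 0.21). With quantile normalization it was 0.23 higher and passed the test (adjusted p = 0.0175). RPS3, which lines the entry of the mRNA channel, differed by 0.08, and RPL10, whose loading completes the large subunit and which is mutated in T-cell leukaemia, by 0.14 (95% CI -0.00 to 0.29). RPL10 read 14.90 in both WT libraries and 15.06 and 15.03 in R5W, so its groups did not overlap, and its adjusted p was 0.146. RPS15, recurrently mutated in chronic lymphocytic leukaemia, read 15.30 and 15.28 in WT and 15.51 and 15.14 in R5W, on both sides of WT (difference 0.04). RPS15 was called in only 1 of 19 alternatives, without R5W replicate 2 (0.22). Its difference ran from -0.15 to 0.22 over the 19. RPS27A, made as a fusion with ubiquitin, differed by 0.04.

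The genes also moved together between replicates of 1 genotype. The median over the 80 genes of WT replicate 2 minus WT replicate 1 was -0.08, with 76 of 80 genes lower, while it was 0.00 over all genes tested, of which 49% were lower. In R5W cells, replicate 2 minus replicate 1 had a median of -0.05, with 55 of 80 lower, against 0.01 and 47.6% over all genes tested. The median difference between genotypes of 0.07 was thus no larger than the median gap between the WT replicates. As deviations from each gene's own mean over the 4 libraries, the medians of the 80 genes were 0.00 and -0.08 in WT and 0.06 and 0.00 in R5W, so the groups met. Leaving out each library in turn gave a median difference between 0.04 and 0.12, the highest without WT replicate 1.

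As a share of the library, the 80 genes took 10.31% and 9.879% of the recovered reads in WT and 10.67% and 10.24% in R5W. R5W replicate 2 lay between the WT libraries, so the groups overlapped. The means were 10.09% and 10.46%, and the difference of 0.36 percentage points had a 2-sided exact permutation p of 0.667, where the smallest possible is 0.333. This test did not pair the libraries by replicate number. The difference was 0.15 percentage points without WT replicate 2 or without R5W replicate 1, and 0.58 without WT replicate 1 or without R5W replicate 2. The share is of polyadenylated RNA, and a higher share and a lower amount of other RNA cannot be told apart in it.

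**Figure D3:**
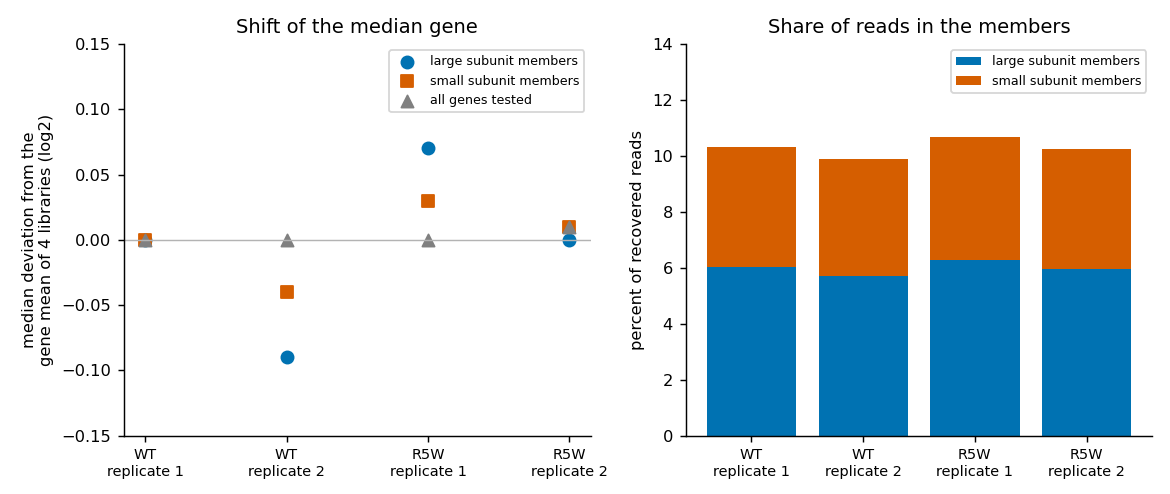
The left panel shows, for each library, the median deviation from the gene mean of the 4 libraries, in log2 units, for the large subunit genes (circles), the small subunit genes (squares) and all genes tested (triangles). The right panel shows the percent of recovered reads in the 80 genes, split by subunit. The ribosomal protein genes sit lowest in WT replicate 2 and highest in R5W replicate 1, while WT replicate 1 and R5W replicate 2 are alike, and the shares run from 9.879% to 10.67%.

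The ribosomal protein genes stood among the most abundant mRNAs, with 39 of them in the 100 most abundant gene rows and 75 in the 500 most abundant. RPL13A, which also hosts small nucleolar RNAs, had the highest mean level of all rows over the 4 libraries and by itself took 0.86% and 0.817% of reads in WT and 0.804% and 0.789% in R5W. On the log2 scale it read 17.76 and 17.66 in WT and 17.66 and 17.63 in R5W, a difference of -0.06 (95% CI -0.21 to 0.08). In R5W cells EEF1A1, at 17.66 and 17.71, had the higher mean of the pair. The 10 most abundant of the 80 genes held 33.9% of their reads. Over the 80 genes, Spearman's rho between mean level and difference was -0.25 and between length and difference 0.13, given as descriptions since the genes share the same 4 libraries.

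Levels per length show how unequal the mRNAs were. The value per kilobase, on the linear scale, had a mean over the 4 libraries of 185062 for RPL13A, the highest, and 114212 for RPS6, which was among the 3 highest. The lowest were RPL22L1 at 389.9, RPL26L1 at 478.6 and RPL7L1 at 1546, followed by RPS26 at 3900 and RPL22 at 5031. The highest and the lowest differed 475-fold, or 47.5-fold with the 3 paralogs left out. The median level per kilobase was 32816 for the large subunit genes without the paralogs and 36406 for the small subunit genes. Some deposited lengths were those of long transcripts, such as 4885 bases for RPL27A and 4409 for RPL28, beside a median of 728 bases over the 80 genes, so their levels per length are too low if shorter mRNAs were counted.

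**Figure D4:**
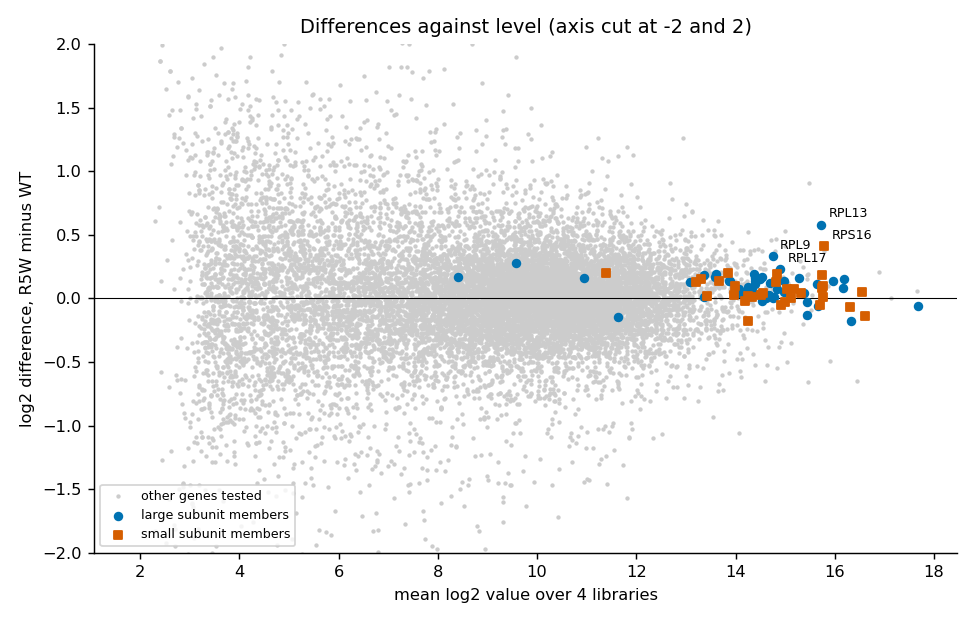
The difference between R5W and WT, in log2 units, is plotted against the mean log2 value over the 4 libraries for all 13698 genes tested, with large subunit genes as circles and small subunit genes as squares. The y axis stops at -2 and 2. Most ribosomal protein genes lie at the right end, the 3 paralogs lie farther left, and all lie in a narrow band around 0 from -0.18 to 0.58, with RPL13 and RPS16 at its top.

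Other mRNAs that carry the TOP motif were close to the ribosomal protein genes. Of 21 such genes, 3 rose (14.3%, near the 13.1% of all genes tested) and 0 fell (11.9% of all genes tested, 0 of these 21 at an unadjusted p under 0.05 by limma), and their median difference was 0.06. HNRNPA1, a splicing regulator, read 14.64 and 14.59 in WT and 14.97 and 15.00 in R5W and rose by 0.37 (limma adjusted p = 0.00162). The call of HNRNPA1 held in 16 of 19 alternatives, but not without WT replicate 1 or without WT replicate 2. The others that rose were NPM1, a nucleolar chaperone (0.37, adjusted p = 0.00313), and EEF1B2, an exchange factor for elongation (0.24, adjusted p = 0.0261). EEF1A1 and EEF2, the main elongation factors, differed by 0.06 and -0.04. Of the 7 ribosomal protein genes outside the rule, 5 were tested and 1 rose, RPL39L, a paralog of RPL39, at 8.56 and 8.60 in WT and 9.15 and 8.83 in R5W (0.41, adjusted p = 0.0338). The call of RPL39L held in 12 of 19 alternatives, but not without WT replicate 1, without WT replicate 2 or without R5W replicate 1 (0.24). FAU, made as a fusion with a protein like ubiquitin, read 13.03 and 13.07 in WT and 13.21 and 12.93 in R5W, on both sides of WT, and differed by 0.02.

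Several lists of genes that serve the making of ribosomes had larger median differences. A list of 12 genes mixed chaperones and clearance factors of ribosomal proteins with assembly factors. Of these, 5 rose (41.7%) and 0 fell (0 at an unadjusted p under 0.05 by limma), with a median of 0.23. Of all genes tested, 13.1% rose and 11.9% fell. BYSL, an assembly factor of the small subunit, read 10.01 and 10.11 in WT and 10.74 and 10.41 in R5W, with no overlap, and rose by 0.52 (limma adjusted p = 0.00379). The call of BYSL held in 17 of 19 alternatives, but not without WT replicate 1 (0.47). TSR1 rose by 0.44, RIOK1 by 0.36, NOB1 by 0.29 and BCCIP by 0.27. TSR2, the chaperone of RPS26, differed by 0.03 and was not called. The others not called were GRWD1 (0.20), HEATR3 (0.08), HUWE1 (0.15), UBE2O (-0.00), LTV1 (0.27) and RIOK2 (0.03). Of 30 subunits and factors of RNA polymerases I and III, which transcribe ribosomal and transfer RNA, 9 rose (30%) and 1 fell (3.33%), with a median of 0.19. POLR3G read 8.88 and 8.98 in WT and 9.31 and 9.50 in R5W and rose by 0.47 (adjusted p = 0.00785). The call of POLR3G held in 16 of 19 alternatives, but not without WT replicate 1 or without WT replicate 2. TAF1C, a subunit of the polymerase I selectivity factor, fell by 0.31 (adjusted p = 0.044). Its call held in 11 of 19 alternatives, but not without R5W replicate 2 (-0.14), without WT replicate 1 or without WT replicate 2.

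Host genes of small nucleolar RNAs often carry TOP motifs and are spliced to release the RNAs that guide modification of ribosomal RNA. Of 7 measured, 4 rose (57.1%, beside 13.1% of all genes tested) and 0 fell (0 at an unadjusted p under 0.05 by limma), with a median of 0.27. SNHG12 read 6.67 and 6.83 in WT and 7.36 and 7.28 in R5W and rose by 0.57 (limma adjusted p = 0.0314). The call of SNHG12 held in 14 of 19 alternatives, but not without WT replicate 1 (0.49) or without WT replicate 2 (0.64). SNHG7 rose by 0.45, SNHG1 by 0.39 and GAS5 by 0.27. Of 29 initiation factors, 8 rose (27.6%, beside 13.1% of all genes tested) and 1 fell (3.45%, beside 11.9%), with a median of 0.19. EIF5A, which relieves stalled ribosomes, read 13.45 and 13.47 in WT and 14.15 and 13.77 in R5W and rose by 0.50 (adjusted p = 0.00549). That call held in 17 of 19 alternatives, but not without WT replicate 1. EIF4G3 fell by 0.35 (adjusted p = 0.00499), a call that held in 16 of 19 alternatives but not without WT replicate 1 or without WT replicate 2. The difference between these lists and the ribosomal protein genes was not tested.

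**Figure D5:**
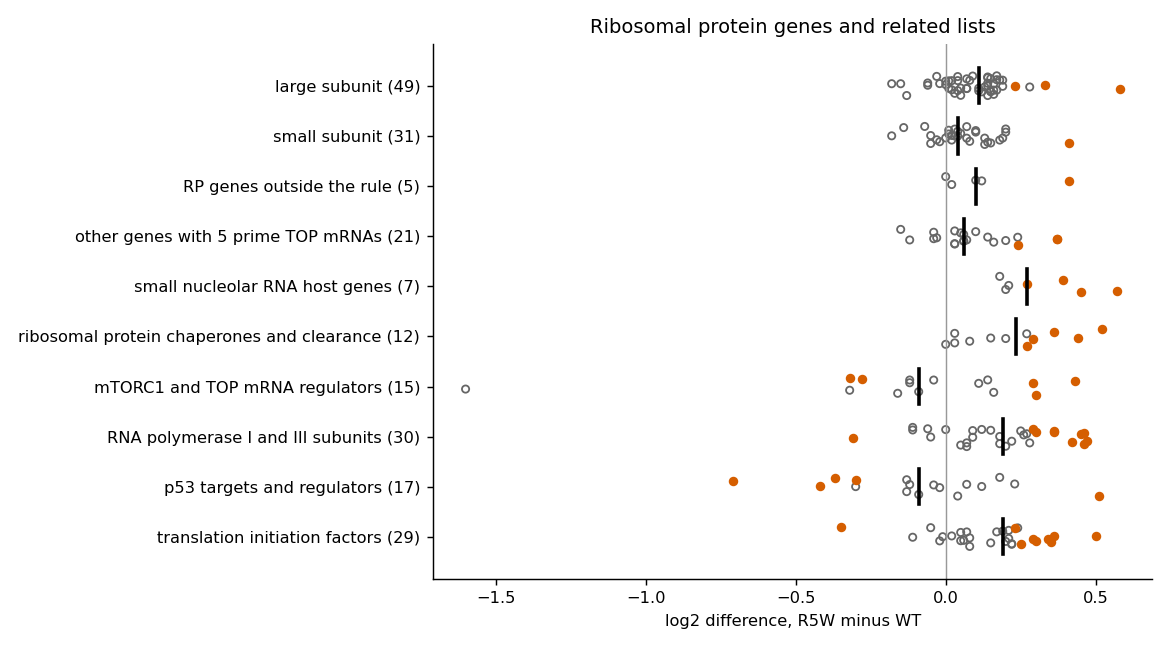
Each mark is 1 gene, placed by its log2 difference between R5W and WT, in rows for the subunits and the related lists, with the number of genes tested in brackets. Filled marks had an adjusted p under 0.05, open marks did not, and black bars are medians. The medians of the ribosomal protein genes are 0.11 and 0.04. Farther from 0 lie those of the list of chaperones, clearance and assembly factors (0.23), the polymerases (0.19), the initiation factors (0.19) and the small nucleolar RNA hosts (0.27).

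Regulators upstream of these mRNAs were called at shares near those of all genes tested. Of 15 mTORC1 and TOP regulators tested, 3 rose (20%, beside 13.1% of all genes tested) and 2 fell (13.3%, beside 11.9%), with a median of -0.09. EIF4EBP1, a repressor of cap-dependent initiation, read 9.04 and 8.82 in WT and 9.55 and 9.18 in R5W and rose by 0.43 (limma adjusted p = 0.0325). The call of EIF4EBP1 held in 13 of 19 alternatives, but not without R5W replicate 1 (0.24), without WT replicate 1 or without WT replicate 2 (0.32). LARP1 rose by 0.30 and RHEB, the activator of mTORC1, by 0.29. TSC1, part of the complex that turns RHEB off, read 11.36 and 11.41 in WT and 11.04 and 11.09 in R5W and fell by 0.32 (adjusted p = 0.00973). Its call held in 16 of 19 alternatives, but not without WT replicate 1 or without WT replicate 2. AKT1S1, an inhibitory subunit of mTORC1, fell by 0.28. MTOR, RPTOR, MLST8 and DEPTOR were not analysed here. Of 17 p53 targets and regulators, which respond when free RPL5 and RPL11 bind MDM2, 1 rose (5.88%, beside 13.1% of all genes tested) and 4 fell (23.5%, beside 11.9%). AEN rose by 0.51 (adjusted p = 0.00164), a call that held in 17 of 19 alternatives but not without WT replicate 1. BBC3, a pro-apoptotic target of p53, read 10.71 and 10.65 in WT and 10.01 and 9.94 in R5W and fell by 0.71 (adjusted p = 8.07e-05), which passed with each library left out.

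The libraries themselves held 19460630 to 21956536 recovered reads. RHOA read 13.83 and 13.70 in WT and 13.65 and 13.73 in R5W (-0.07, adjusted p = 0.531). Its mRNA level does not check the genotype label, since the change is in the sequence. Of 7 B-cell markers, all detected, 5 fell in R5W cells, beside 11.9% of all genes tested. PAX5 (-0.21, limma adjusted p = 0.0509) and CD22 (0.17, limma adjusted p = 0.124) were not called, and both R5W values of CD22 lay above WT. The summed value of the 7 was 241680 and 232511 in WT and 169417 and 166748 in R5W. This sum weighs the most abundant of them, CD74 and MS4A1, the most. MS4A1 fell by 0.66. Markers of other cells were low or absent: all 3 erythroid markers and CD3D, CD2 and EPCAM were at 0 in all libraries. Summed values ran from 51.4 to 101 for T cells and from 7.37 to 17.2 for myeloid cells. The T-cell sum rested on 1 gene, CD8A, since CD3E read at most 1.30. CD8A read 6.61 and 6.62 in WT and 5.76 and 5.68 in R5W and was called lower (-0.88, limma adjusted p = 0.0108). Summed fibroblast markers were 242 and 258 in WT and 478 and 496 in R5W, with COL1A1 rising while DCN, the other fibroblast marker tested, overlapped (-0.05, adjusted p = 0.917). Summed epithelial markers were 90.3 and 101 in WT and 353 and 313 in R5W, with KRT8, their only marker tested, rising. The sums for B cells, T cells, fibroblasts and epithelial cells separated the groups, which the share of reads in the ribosomal protein genes did not, and their part in the results was not tested.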

How the data were processed

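Per the labels' protocols, the WT and R5W libraries were made from RNA of TMD8 cells with a stranded mRNA kit and paired-end sequencing. The authors deposited log2 values per gene symbol with a length in bases. The submitters' processing notes name bcl2fastq, cutadapt, STAR, RSEM and Picard and the builds GRCh37 and hg19, with no version or role. With the logarithm undone, 100% of values up to 200 reads were whole multiples of the value of 1 read (tolerance 0.1 read), so each value was a scaled read count. Recovered reads numbered 19460630 to 21956536 per library, and these depths bound counting error only. The authors also deposited raw counts for the drug-treated lines, and these were used only for the check of symbols described in the report.

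Differences were tested with limma 3.58.1 (trend and robust, R 4.3.3) on log2(value + 1) in the 4 libraries. Genes with a value of at least 10 in at least 2 libraries were kept, and p-values were Benjamini-Hochberg adjusted over all 13698. The plan had foreseen either counts or normalized values, and log2 values were given the test for normalized ones. Recovered reads were tested with edgeR 4.0.16 and DESeq2 1.42.0 as alternatives. The scripts were tested on simulated data. The ribosomal protein genes, lists and tests were chosen with earlier results of these data known. Genes were named by a rule: up to 6 called genes with the largest rise and up to 6 with the largest fall (4 and 0 were called), the stalk genes, RPSA, paralogs with parents, anaemia genes, other genes of known role, the 3 highest and 3 lowest per length, and the top called gene of each related list in each direction. Others were named after their values were seen. Promoter sequences came from RefSeq on GRCh38.p14, and no coordinate was converted. Values of a few single genes are not reported here, though these genes stay in the counts and medians.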

Additional observations from a re-analysis of the deposited data

How the results depend on the processing

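Gene by gene, the replicate numbers showed no pairing, since same-numbered libraries deviated with r = -0.06 over all genes and 0.02 over the ribosomal protein genes. This r cannot show a shift common to all the ribosomal protein genes. Their share of reads was lower in replicate 2 of both genotypes (10.31% and 9.879% in WT, 10.67% and 10.24% in R5W). Pairing was not tested for them as a set. With the replicate number as a block, 5 of the ribosomal protein genes were called, RPS19 being added (adjusted p = 0.0472), of which 2 were of the small subunit. Small subunit calls were also 2 with a minimum of 100, with quantile normalization and with the trend on length removed, an alternative chosen after seeing the data. With that trend removed, 3 genes were called lower, and with quantile normalization 1, RPL18. With trend and robust off, 480 genes were called higher and 420 lower, with 0 ribosomal protein genes of either subunit. At an adjusted p under 0.01 the counts over all genes were 970 and 903. Leaving out each library in turn gave 550 to 2839 genes higher and 459 to 2840 lower. It gave 1 to 20 ribosomal protein genes higher, 0 to 5 lower, 1 to 15 of the large subunit, 0 to 10 of the small subunit and a median of 0.04 to 0.12. The cause was not tested. The median of the ribosomal protein genes exceeded that of all genes tested in each of the 19 alternatives of the fit. Adding the ribosomal protein genes outside the rule gave 5 called higher. The share of reads without mitochondrial genes was not run, since no such rows were analysed here. With 2 libraries a group, precision is limited by replicates rather than by depth at these levels.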

Other observations

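Processed or unprocessed copies of ribosomal protein genes appear as 27 pseudogene rows, which took 0.0124% and 0.0101% of the reads in WT cells and 0.0186% and 0.0118% in R5W cells. R5W replicate 2 lay inside the WT range. Of these rows 19 were tested, and 2 rose (10.5%, below the 13.1% of all genes tested), RPL13AP6 (4.55 and 4.55 in WT, 5.76 and 5.49 in R5W, 1.04, limma adjusted p = 0.0246) and RPL23AP53 (5.48 and 5.62 in WT, 6.34 and 6.26 in R5W, 0.74, adjusted p = 0.0382). RPL13AP5, the most abundant of them, read 10.67 and 10.13 in WT and 11.54 and 10.54 in R5W, with overlap between R5W replicate 2 and WT replicate 1 (0.64, adjusted p = 0.506). These rows were named after their values were seen. Reads of such copies cannot be told apart from those of their parent genes where the sequences are identical.

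DDIT4, an mTORC1 inhibitor that many stresses induce, had the widest difference of the mTORC1 and TOP regulators, at 10.41 and 9.84 in WT and 7.72 and 9.32 in R5W. Both R5W values lay below both WT values, but the R5W replicates were far apart, and the difference of -1.60 did not pass the test (SE 0.791, adjusted p = 0.318).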
